A study of Mus musculus with 2 samples.

Results

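Late neutrophil granule genes are genes that developing neutrophils switch on after the promyelocyte stage. A list of 10 symbols, chosen with earlier results of these data known, was looked up in gene-level RNA-seq counts of mouse hematopoietic stem cells (HSCs). All 10 were found among the 24421 gene symbols of the files: *Ngp*, *Camp*, *Ltf*, *Lcn2*, *S100a8*, *S100a9*, *Cebpe*, *Cd177*, *Clec4d* and *Padi4*. By their known roles, the first 4 encode proteins of the specific granules, *S100a8* and *S100a9* encode cytosolic proteins, *Cebpe* a transcription factor, *Cd177* and *Clec4d* surface proteins, and *Padi4* a nuclear enzyme, so the name of the list covers more than granule contents. HSCs came from bone marrow of C57BL/6 donors (CD45.2) grafted into lethally irradiated CD45.1 hosts, and were sorted as CD150+ CD48- Flt3- CD34- cells within the lineage-negative, Sca-1+ c-kit+ (LSK) fraction. The WT library came from Ezh2 +/+ CreERT+/- cells and the other, labelled Ezh2 KO, from Ezh2 Δ/Δ CreERT+/- cells, obtained from Cre-ERT;Ezh2fl/fl donors. Both genotypes thus carried the tamoxifen-dependent Cre, and the labels describe tamoxifen (100 µl of 10 mg/ml daily for 5 days) in the recipients, with the sort 1 month later, without a separate statement for WT. The driver of the Cre transgene, the ages of the mice and the number of mice per library are not given in the sources used here, nor is a sort on CD45.2 that would remove cells of the host.

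Each group had 1 library, so differences below could not be checked against replicates, and every interval and floor covers only counting error, since amplified reads that carry no molecular identifier are not independent molecules. Gene counts totalled 5763118 for WT and 4157280 for the Ezh2 KO-labelled library, and 3 counts, taken as the smallest level that each depth can show, corresponded to 0.521 and 0.722 CPM, the count scaled to the gene total. *Ezh2*, the targeted gene, had 166 and 129 counts, or 142.5 and 150.3 normalised counts (raw counts divided by a size factor for each library), a log2 ratio of 0.08 (95% interval -0.27 to 0.42). Its whole-gene count was thus not lower under the Ezh2 KO label, and that library is named by its label throughout. A whole-gene count cannot show the loss of single exons, and which exons were deleted is not given in the sources used here, so this value does not check the label. The libraries also differed in sex-linked RNAs, with 801 and 4 counts of the X-inactivation RNA *Xist* and 0 and 275 counts of the Y-linked *Ddx3y*, so the sex of the cells and the genotype cannot be told apart here. A list of 25 HSC genes holds 3 antigens that the gate selects against (*Cd34*, *Flt3* and *Cd48*). Of the 22 others, 22 were measured at 1 CPM or more and 0 differed by 2-fold, with 5 higher and 5 lower beyond counting error. Among the most abundant, *Lmo2*, *Kit* and *Gata2* had log2 ratios of 0.13, -0.02 and -0.01. *Slamf1*, which encodes the CD150 of the sort, had 446.2 and 289.0 normalised counts (log2 ratio -0.62, 95% interval -0.85 to -0.41), and *Fgd5* (-0.59) and *Ctnnal1* (-0.70) were also lower, these 3 named after their values were seen.

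Neutrophils build their granules in waves. Primary granules, which carry myeloperoxidase and serine proteases, form in promyelocytes. Specific granules, which carry lactoferrin, cathelicidin and lipocalin, form later, in myelocytes and metamyelocytes, under the transcription factor C/EBPε that *Cebpe* encodes. These transcripts mark maturing granulocytes rather than HSCs, and the sort takes cells without lineage markers.

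The late genes were more abundant in the Ezh2 KO-labelled library, with 1 exception. Of the 10 genes, 9 had a log2 ratio (Ezh2 KO label over WT) above 0 and 8 were at least 2-fold higher, whereas *Padi4* was lower and 0 were at least 2-fold lower. The 10 genes were chosen with earlier results of these data known, so the shares over all genes are a background and not a test. Among all 12588 genes with a mean of at least 1 CPM, 4.91% were at least 2-fold higher and 3.90% at least 2-fold lower. Many of those are weakly counted. Of the 8083 genes averaging 100 normalised counts or more, 0.482% were at least 2-fold higher and 0.569% at least 2-fold lower, and 6 of the 8 late genes at that level were at least 2-fold higher. The median log2 ratio of the 10 genes was 1.27, against -0.003 for all genes tested. All 10 passed the filter on low counts, but *Clec4d* passed it through the Ezh2 KO-labelled library alone, since its WT level was 0.868 CPM. Ratios are of normalised counts plus 1, and a difference of 2-fold was used as the threshold because 2 libraries allow no test of the conditions.

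**Figure D1:**
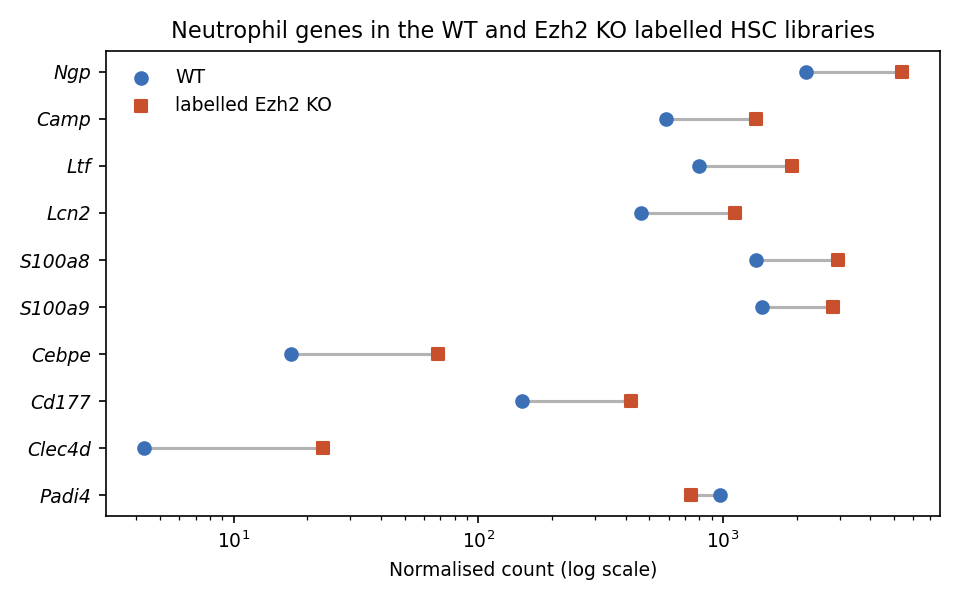
Normalised counts (x axis, log scale) of the 10 genes (y axis) in the WT library (circles) and the Ezh2 KO-labelled library (squares), 1 library each, with a line joining the 2 values of a gene. The square lies to the right of the circle for 9 genes, and to the left for *Padi4* alone, at 742.3 against 970.6 normalised counts.

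The 4 specific granule genes had nearly the same ratio. *Ngp*, which encodes a cystatin-like neutrophilic granule protein, had 2549 counts in WT and 4621 in the Ezh2 KO-labelled library, or 2187 and 5385 normalised counts. *Ltf*, the gene of the iron-binding protein lactoferrin, had 930 and 1646 counts, or 798.1 and 1918 normalised counts. All values of both genes were higher in the Ezh2 KO-labelled library, although that library held fewer reads. *Camp*, which encodes the precursor of the cathelicidin antimicrobial peptide, had 683 and 1174 counts, or 586.1 and 1368 normalised counts. *Lcn2*, whose product lipocalin 2 binds bacterial siderophores, had 538 and 964 counts, or 461.7 and 1123 normalised counts. The log2 ratios were 1.30 for *Ngp* (95% interval 1.23 to 1.37), 1.28 for *Lcn2* (1.13 to 1.44), 1.26 for *Ltf* (1.15 to 1.38) and 1.22 for *Camp* (1.09 to 1.36). The 4 intervals overlap one another, and each lies above the 2-fold line.

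The proportions among these transcripts differed between the libraries by less than counting error. There were 2.74 counts of *Ngp* for each count of *Ltf* in WT (95% interval 2.54 to 2.96) and 2.81 in the Ezh2 KO-labelled library (2.65 to 2.97). Against *Camp* the figures were 3.73 (3.43 to 4.07) and 3.94 (3.69 to 4.20), and against *Lcn2* 4.74 (4.32 to 5.21) and 4.79 (4.47 to 5.14). In each of these pairs the intervals of the libraries overlap.

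*S100a8* and *S100a9* encode the subunits of calprotectin, a calcium- and zinc-binding complex that fills the neutrophil cytosol. *S100a8* had 1595 and 2529 counts, or 1369 and 2947 normalised counts, with WT first, a log2 ratio of 1.11 (1.02 to 1.20). *S100a9* had 1689 and 2421 counts, or 1449 and 2821 normalised counts, a log2 ratio of 0.96 (0.87 to 1.05), a difference of 1.95-fold. Both were higher in the Ezh2 KO-labelled library. The interval of *S100a9* lies below those of the 4 specific granule genes, whereas that of *S100a8* lies below that of *Ngp* but overlaps those of *Camp*, *Ltf* and *Lcn2*. The 2 subunits kept near-equal counts, with 0.944 counts of *S100a8* per count of *S100a9* in WT (0.881 to 1.01) and 1.04 in the other library (0.988 to 1.10). The count of *Ngp* per count of *S100a9* was 1.51 in WT (1.42 to 1.61) and 1.91 in the Ezh2 KO-labelled library (1.82 to 2.01), intervals that do not overlap.

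*Cebpe* itself was weakly counted, with 20 counts in WT and 59 in the Ezh2 KO-labelled library, or 17.2 and 68.8 normalised counts. Its log2 ratio was 1.94, and the interval of 1.25 to 2.81 overlaps those of the 4 specific granule genes. *Cd177*, which encodes a GPI-anchored neutrophil surface glycoprotein, had 176 and 360 counts, or 151.0 and 419.5 normalised counts, a log2 ratio of 1.47 (1.21 to 1.74). *Clec4d*, which encodes a C-type lectin receptor of myeloid cells, had 5 and 20 counts, or 4.29 and 23.3 normalised counts. Its log2 ratio of 2.20 has an interval of 0.98 to 4.21, so a difference under 2-fold lies within its counting error. All 3 genes were higher in the Ezh2 KO-labelled library.

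*Padi4* went the other way. It encodes peptidylarginine deiminase 4, which converts arginine to citrulline in histones, is abundant in neutrophils and is also known from stem and progenitor cells. It had 1131 counts in WT and 637 in the Ezh2 KO-labelled library, or 970.6 and 742.3 normalised counts, a log2 ratio of -0.39 (-0.53 to -0.25) or 1.31-fold lower. That interval overlaps none of the other 9. For each count of *Padi4* there were 2.25 counts of *Ngp* in WT (upper bound 2.42) and 7.25 in the Ezh2 KO-labelled library (lower bound 6.68). The other peptidylarginine deiminase genes were low. *Padi2* had 54 and 32 counts, *Padi1* 18 and 11, *Padi3* 1 and 0, and *Padi6* was listed at 0 in both libraries.

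**Figure D2:**
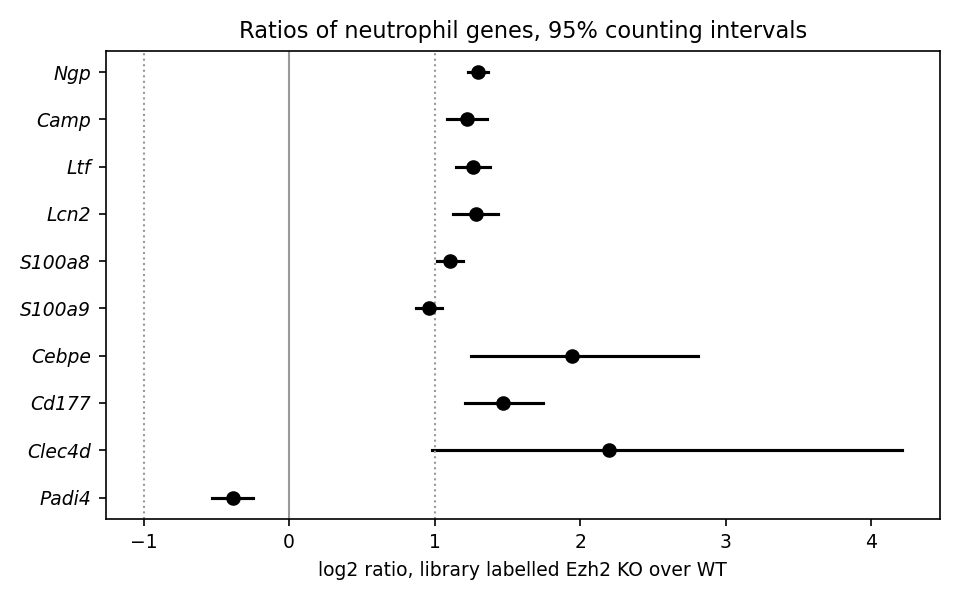
Log2 ratio of the Ezh2 KO-labelled library over WT (x axis) for each of the 10 genes (y axis), 1 library per group, with the point ratio and its 95% counting interval, and dotted lines at 2-fold in each direction. The specific granule genes sit together between 1.22 and 1.30, the 2 weakly counted genes *Cebpe* and *Clec4d* have wide intervals, and *Padi4* lies at -0.39.

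Together the 10 genes made up 0.162% of all gene counts for WT (95% interval 0.158% to 0.165%) and 0.347% in the Ezh2 KO-labelled library (0.341% to 0.353%), a factor of 2.15. Within that sum, *Padi4* took 12.1% (WT) and 4.41% (Ezh2 KO label), and *Ngp* took 27.4% and 32.0%. Without *Padi4*, left out after its value was seen, the shares of gene counts were 0.142% and 0.332%. In sorted populations measured as a whole, more cells of a type and more RNA per cell cannot be told apart.

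Levels between genes were compared per length, as CPM per kilobase of exon. In WT the order began with *S100a9* at 561 (95% interval 535 to 589), *S100a8* at 399 (379 to 419) and *Ngp* at 362 (348 to 376). *Camp* followed at 156, then *Ltf* at 46.8 (43.8 to 49.9), *Padi4* at 40.6 (38.3 to 43.0) and *Lcn2* at 35.6 (32.6 to 38.7), the last neighbours overlapping. *Cd177* stood at 10.8, *Cebpe* at 2.80 and *Clec4d* at 0.543. Abundance thus spanned about 3 orders of magnitude within the list. In the Ezh2 KO-labelled library the order was the same except in a pair of places: *Ngp* (909.6, 884 to 936) moved level with *S100a8* (877, 843 to 911), whose interval it overlaps, and *Padi4* (31.7, 29.3 to 34.3) dropped below *Lcn2* (88.4) to the level of *Cd177* (30.5, 27.4 to 33.8). *S100a9* remained highest at 1116 and *Clec4d* lowest at 3.01. These values rest on GENCODE exon lengths, which may differ from the annotation used for counting.

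Among abundant genes the late neutrophil genes stood at the upper end of the ratios. Of 2458 genes averaging 500 normalised counts or more, the highest log2 ratios were those of *Prg2* and *Epx*, which encode eosinophil granule proteins and had 0 counts in WT against 2030 and 1000 with the Ezh2 KO label. Against the WT floor of 3 counts, *Prg2* was at least 919-fold higher and *Epx* at least 453-fold. Places 3 to 8 were held by *Ngp*, *Lcn2*, *Ltf*, *Camp*, *S100a8* and *S100a9*. *Chil3*, which encodes a chitinase-like neutrophil and macrophage protein, was at place 9 with a log2 ratio of 0.95, and *Irf2bp2*, a transcriptional corepressor gene, at place 10 with 0.94. *Padi4* was at place 2306. The minimum applies to the mean of the 2 libraries. *Prg2*, *Epx*, *Lcn2* (461.7 normalised counts in WT), *Chil3* (475.4) and *Irf2bp2* (498.6) passed it only through the Ezh2 KO-labelled library, which favours high ratios. The other late genes at places 3 to 8 were above it in both libraries. With the minimum set at 100 normalised counts, *Cd177* ranked 10 of 8083, the 4 specific granule genes between 17 and 23, *S100a8* 30 and *S100a9* 43. With only 2 libraries the likeness of these genes is a ratio alone, and no correlation can be given.

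**Figure D3:**
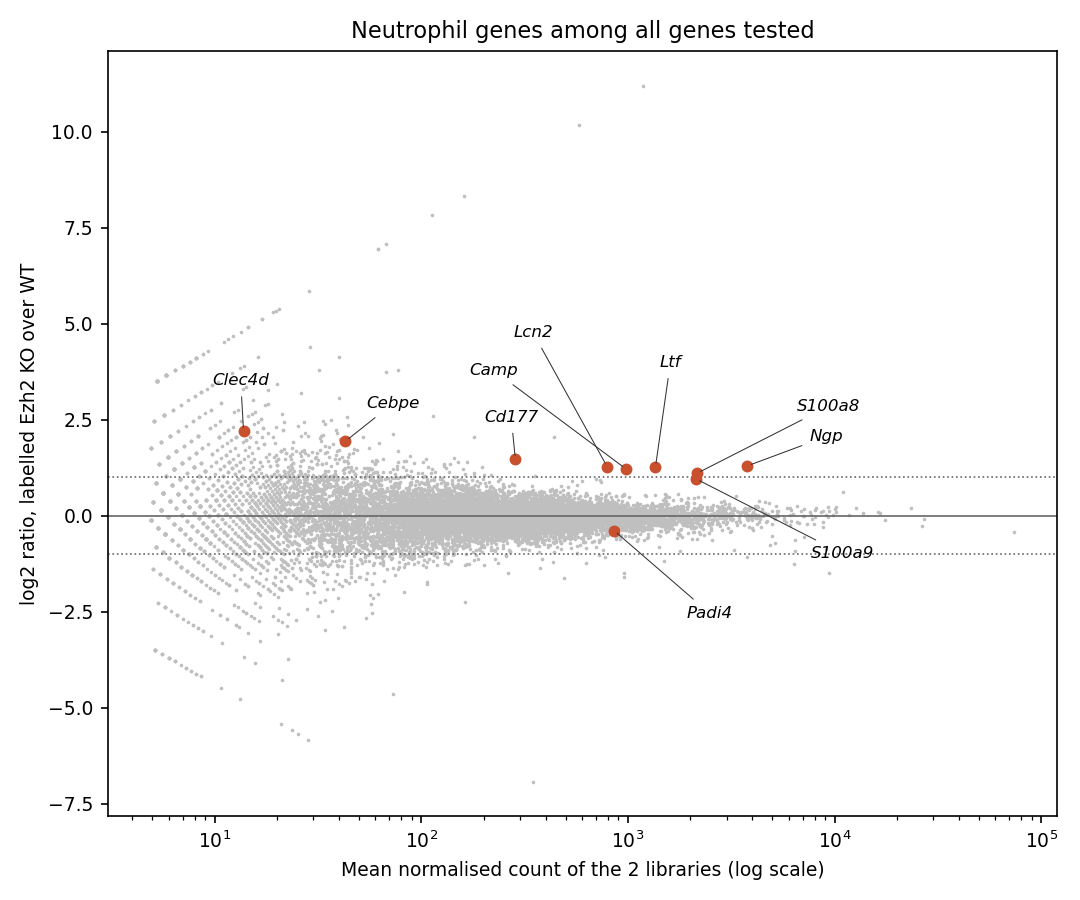
Log2 ratio of the Ezh2 KO-labelled library over WT (y axis) against the mean normalised count of the 2 libraries (x axis, log scale) for 12588 genes tested (grey), with the 10 late neutrophil genes named in orange and dotted lines at 2-fold. The spread of grey points narrows with abundance, and *Ngp*, *Ltf*, *Camp*, *Lcn2* and *S100a8* lie above the upper line where few other genes do, while *Padi4* lies below 0.

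Of the 10 genes, 3 share a stretch of chromosome 9, and *S100a8* and *S100a9* are 22.6 kb apart on chromosome 3 (90668978 to 90670035 and 90692632 to 90695721 in GRCm38, the assembly mm10 names). On chromosome 9, *Camp* lies at 109847379 to 109849617, *Ngp* at 110419747 to 110423012 and *Ltf* at 111019271 to 111042767, a span of 1195 kb. The files hold 33 genes in that span, these 3 included. Of the 18 others with a mean of at least 1 CPM, 2 were at least 2-fold higher and 1 was lower, with a median log2 ratio of -0.24. The 2 higher genes, *Pth1r* (1 and 15 counts) and *Prss50* (6 and 19), and the lower one, *Ptpn23* (38 and 12), named after their values were seen, were weakly counted. *Ptpn23* and *Klhl18*, the neighbours of *Ngp* on either side, had log2 ratios of -1.17 and -0.45. Most genes between *Camp*, *Ngp* and *Ltf* thus did not share their ratio. The other 5 genes are spread over chromosomes 2 (*Lcn2*), 4 (*Padi4*), 6 (*Clec4d*), 7 (*Cd177*) and 14 (*Cebpe*). GENCODE annotates no gene that overlaps any of the 10.

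The sequences before the starts of the chromosome 9 genes are shown because these genes moved together, and that of *Padi4* because it did not follow. They are from RefSeq (GRCm38.p6), 5′ to 3′ on the strand of the gene, and end before the first start that either RefSeq or GENCODE gives. Capitals mark matches to TTNNGCAA, a C/EBP core, GAGGAA, a PU.1 core, or TGTGGT, a Runx core, on either strand.
Ngp (chr9:110419558-110419746, plus strand): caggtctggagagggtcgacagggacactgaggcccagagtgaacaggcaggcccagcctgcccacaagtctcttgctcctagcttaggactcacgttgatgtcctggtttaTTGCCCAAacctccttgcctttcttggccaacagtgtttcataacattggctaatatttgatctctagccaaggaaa
Ltf (chr9:111019042-111019270, plus strand): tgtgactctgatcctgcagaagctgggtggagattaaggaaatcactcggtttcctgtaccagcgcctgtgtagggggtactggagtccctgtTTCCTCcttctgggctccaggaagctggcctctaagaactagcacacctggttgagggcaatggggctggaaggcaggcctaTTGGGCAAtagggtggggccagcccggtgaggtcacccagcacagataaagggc
Camp (chr9:109849618-109849706, minus strand): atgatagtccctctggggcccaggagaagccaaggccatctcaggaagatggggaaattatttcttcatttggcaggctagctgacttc
Padi4 (chr4:140774237-140774453, minus strand): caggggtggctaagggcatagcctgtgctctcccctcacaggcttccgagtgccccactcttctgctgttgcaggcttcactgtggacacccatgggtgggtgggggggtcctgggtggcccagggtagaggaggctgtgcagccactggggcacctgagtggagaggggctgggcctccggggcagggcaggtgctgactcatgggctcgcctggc

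Of the 10 genes, 9 were matched in the RefSeq promoter table used here, all but *Cebpe*. In the 250 bases before the RefSeq start, the C/EBP core was found in 4 of these 9 genes, *Ngp*, *Ltf*, *Lcn2* and *S100a9*, against 9.57% of 32841 promoters. *Ngp* had 2 matches, at positions -138 and -11 from its RefSeq start, the second of which lies past the stretch printed, and *Ltf* had 1, at -75. The PU.1 core was found in 5 of 9, against 23.3% of all promoters, and the Runx core in 1 of 9, *S100a9*, against 14%. *Camp* and *Padi4* had no match to any of the 3. GENCODE starts some of these genes earlier than RefSeq. By its start, both matches of *Lcn2* (C/EBP at -216, PU.1 at -20) lie inside the gene. So do the *Ngp* match at -11 and the *S100a8* PU.1 match at -36. A match is a description of letters and does not show binding. The motifs share no position in these genes. All 9 promoters were poor in CpG, with 0 to 4 CpG dinucleotides in 250 bases and a median observed over expected ratio of 0.125, against 0.374 for all promoters. Their G and C content ranged from 35.2% (*Clec4d*) to 66.0% (*Padi4*), with a median of 53.6% against 52.4% for all promoters.

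Other genes of the neutrophil programme were read from lists, also chosen with earlier results of these data known. Of 24 other genes of specific and gelatinase granules, 20 were measured at 1 CPM or more, 5 were at least 2-fold higher and 1 lower, with a median log2 ratio of 0.31. At 100 normalised counts or more, 2 of 12 were higher and the median was 0.26. The 4 most abundant were *Lyz2* (lysozyme, log2 ratio 0.26), *Anxa1* (annexin A1, 0.14), *Chil3* (0.95) and *Cyba* (an NADPH oxidase subunit, -0.07), so the size of the difference in the late genes was not common to all granule genes. The higher ones, named here because they are 5, were *Cybb*, the catalytic oxidase subunit (81.5 and 217.9 normalised counts), *Itgam*, which encodes CD11b (62.6 and 152.7), *Itgb2l* (25.7 and 99.1), *Olfm4* (6.01 and 19.8) and *Mmp25* (0 and 13 counts, at least 5.88-fold higher, and past the filter only through the Ezh2 KO-labelled library). The lower one was *Hpse*, the heparanase gene, with 88.4 and 40.8 normalised counts. *Mmp8*, the neutrophil collagenase gene of the specific granules, was near the floor with 6 and 5 counts, and *Mmp9*, the gelatinase, had a log2 ratio of 0.66 (0.26 to 1.07); both were named after their values were seen.

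Genes of mature neutrophil surface and response gave a mixed picture. Of 42 listed, 30 were measured at 1 CPM or more, 10 were at least 2-fold higher and 2 lower, with a median log2 ratio of 0.68. Of the 10, 2 passed the filter only through the library where they were high, and of the 2 lower, 1. Among the 9 genes averaging 100 normalised counts or more, 1 was at least 2-fold higher and the median was 0.27. The summed share of the 41 genes in the files was 0.204% of gene counts in WT and 0.182% in the Ezh2 KO-labelled library. *Dusp1* alone held 7448 of the 11735 counts in this sum for WT and 3337 of 7550 in the other library. The lower sum thus does not describe the list, in which 25 of the 30 genes measured had a log2 ratio above 0 and 5 below. The most abundant were *Dusp1* (log2 ratio -0.72), *Selplg* (0.27), *Alox5ap* (0.12) and *Csf3r*, the receptor for granulocyte colony-stimulating factor (414.5 and 781.9 normalised counts, 0.91). Markers that define the blood neutrophil were at or near 0: *Stfa2*, *Stfa2l1*, *Stfa3*, *Gm5483* and *Prok2* were listed at 0 in both libraries, and *Ly6g* was not analysed here. *Cxcr2*, the chemokine receptor that guides neutrophils out of the marrow, had 25 and 36 counts, and *Retnlg*, a gene of mature neutrophils, 1 and 20, both chosen after their values were seen.

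Most genes of a list for primary granules and promyelocytes did not share the difference. Of 22 listed, 20 were measured at 1 CPM or more, 1 was at least 2-fold higher and 0 lower, with a median log2 ratio of 0.11, or 0.03 for the 16 at 100 normalised counts or more. The 4 most abundant, *Srgn* (0.01), *Calr* (-0.03), *Gstm1* (0.05) and *Cd63* (-0.01), had ratios near 0. Of these, *Calr* encodes a chaperone and *Gstm1* a glutathione transferase, so the list covers more than granule contents. How much of their RNA came from granulocyte precursors and how much from HSCs was not tested. The single higher gene was *Fcnb* (69.5 and 152.7 normalised counts), which encodes ficolin B. Of the protease genes, named after their values were seen, *Elane* (neutrophil elastase) had 738.0 and 435.8 normalised counts and *Prtn3* (proteinase 3) 1143 and 1087. *Ctsg* (cathepsin G) had 104.7 and 103.7, and *Prss57* 35.2 and 52.4. *Mpo* (myeloperoxidase), also named after its value was seen, had 1540 and 1790. The log2 ratio of *Elane*, -0.76, was the lowest of the 20 measured, so the pair of *Ngp* and *Elane* below is the most extreme of the list. Thus 2.96 counts of *Ngp* were recorded per count of *Elane* in WT (2.74 to 3.21) and 12.4 in the Ezh2 KO-labelled library (11.1 to 13.8), and per count of *Mpo* 1.42 (1.34 to 1.51) and 3.01 (2.84 to 3.19).

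Among 23 genes listed as granulocyte transcription factors, 3 were at least 2-fold higher and 0 lower, with a median log2 ratio of -0.03. At 100 normalised counts or more, 0 of 15 were higher. Over all genes tested 4.91% were at least 2-fold higher, and 0.482% of those at 100 normalised counts or more. The 3 higher genes were *Lef1* (3 and 24 counts, past the filter only through the Ezh2 KO-labelled library), *Klf5* (6 and 20) and *Per3* (58 and 87). Of these, *Per3* is a circadian clock gene. The most abundant were *Junb* (-0.91), *Etv6* (-0.01), *Stat3* (-0.12) and *Myb* (0.45). Other C/EBP genes, named after their values were seen, did not have the ratio of *Cebpe*: *Cebpa* had 19 and 11 counts with a log2 ratio of -0.32 (-1.56 to 0.80), *Cebpb* 988 and 548 counts with -0.41 (-0.56 to -0.26), and *Cebpd* 106 and 90 counts with 0.20 (-0.22 to 0.62). *Spi1*, which encodes PU.1, had a log2 ratio of -0.04 (-0.20 to 0.12) and *Gfi1*, a repressor required in neutrophil maturation, -0.12 (-0.32 to 0.09).

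Gene families of the list were examined as well. Of 16 other S100 genes, 7 were measured at 1 CPM or more and 0 differed by 2-fold, with a median log2 ratio of 0.12. The most abundant, *S100a11*, *S100a10*, *S100a6* and *S100a1*, lay between -0.15 and 0.29, below the interval of *S100a9*. Of 12 other C-type lectin genes of the *Clec4d* family, 4 were measured at that level. They were *Clec4e*, whose product pairs with that of *Clec4d* (37.8 and 62.9 normalised counts), *Clec7a* (24.9 and 22.1), *Clec4a2* (6 and 15 counts) and *Clec4a3* (8 and 4).

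**Figure D4:**
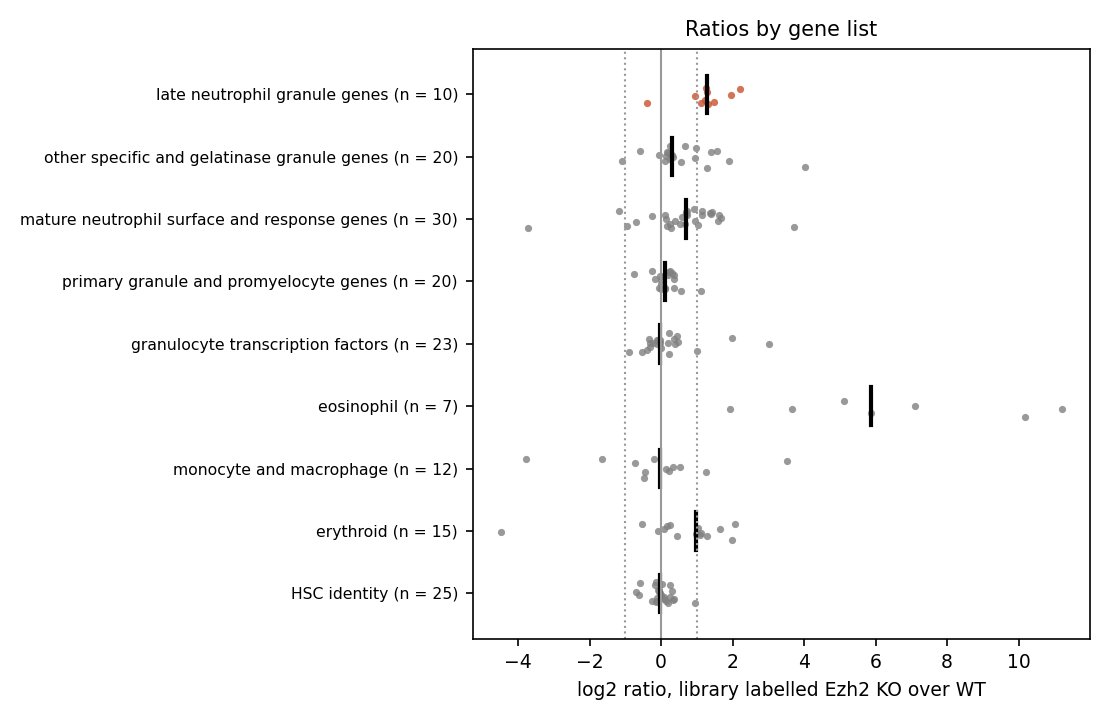
Log2 ratio of the Ezh2 KO-labelled library over WT (x axis) for genes with a mean of at least 1 CPM in each list (y axis, number of genes in brackets), 1 point per gene, with black bars at the median and dotted lines at 2-fold. The late neutrophil genes have a median of 1.27, primary granule and promyelocyte genes 0.11 and the HSC list, gate antigens included, -0.02. Eosinophil genes have the highest median at 5.86, but all 7 plotted passed the filter only through the Ezh2 KO-labelled library, and ratios of genes with 0 counts in WT depend on the added count of 1.

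Markers of other blood cells also differed between the libraries, and their part in the late neutrophil result was not tested. The percentages below are summed shares of gene counts, WT first, over all genes of a list that the files hold. Of 12 eosinophil genes, 7 passed the filter, *Prg2*, *Epx*, *Prg3*, *Ear1*, *Ear6*, *Ear2* and *Il5ra*, and 7 of these did so only through the Ezh2 KO-labelled library, so that the direction of their ratios was fixed by the filter. Together these 7 had 2 counts in WT and 3242 in the Ezh2 KO-labelled library. The eosinophil genes under the filter did not go that way: *Ccr3* and *Siglecf* had 5 and 4 counts each, *Alox15* had 4 and 0, and *Ear10* was at 0 in both. The share over the 11 genes was 0.000278% and 0.0782%. C/EBPε is known to act in eosinophils as well. Of 15 erythroid genes measured, 7 were at least 2-fold higher, 1 of them through the filter only by the Ezh2 KO-labelled library, and 1 was lower, which passed only by WT (0.186% and 0.235%). The most abundant, *Car2*, had a log2 ratio of 0.24. Of 6 B lymphoid genes measured, 5 were higher and 0 lower (0.00484% and 0.0102%), but 4 of the 5 passed only through the Ezh2 KO-labelled library. The most abundant, *Cd79b*, had a log2 ratio of 0.31, with *Ms4a1*, *Rag1* and *Rag2* at 0 in both. Of 12 monocyte and macrophage genes, 2 were higher and 2 lower (0.00937% and 0.00960%), 1 of each through 1 library alone, with *Cx3cr1* at 0 in both. Of 4 T and natural killer cell genes, 2 were higher, both past the filter only through the Ezh2 KO-labelled library, and 1 was lower (0.00316% and 0.00224%), with *Cd3e*, *Cd3d*, *Gzma* and *Cd2* at 0. Of 3 basophil and mast cell genes, 1 was higher, also through that library alone (0.000781% and 0.00159%), with *Ms4a2*, *Gzmb*, *Mcpt4*, *Tpsb2* and *Cma1* at 0, and of 10 megakaryocyte genes 1 was lower (0.199% and 0.193%), with *Gp6* at 0. A list of 12 genes was made for antigens that the gate selects against. Of these, 5 were measured at 1 CPM or more, with 1 at least 2-fold higher and 0 lower (0.0417% and 0.0505%). *Ptprc*, 1 of the 5, is no such antigen as a whole gene, since it encodes CD45, which the donor cells carry. It held 1254 of the list's 2406 counts in WT and 986 of 2101 in the Ezh2 KO-labelled library. *Itgam* was the higher one, with 62.6 and 152.7 normalised counts. *Flt3* had 84.1 and 163.1 normalised counts, *Cd34* 821.2 and 966.0, *Ptprc* 1076 and 1149 (log2 ratio 0.09), and *Cd48* 12 and 11 counts. Under the filter, *Ly6c1* had 7 and 1 counts and *Cd4* 4 and 0. *Cd48*, *Ly6c1*, *Cd4* and the eosinophil genes beyond the 4 most abundant were named after their values were seen.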

How the data were processed

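RNA-seq was performed on HSCs, with 1 WT library and 1 Ezh2 KO-labelled library. The authors deposited read counts for each gene symbol, with no normalisation. The submitters' processing notes name mm10, TopHat2 2.0.13, Bowtie2 2.1.0, StringTie, edgeR and bedtools. Each file closes with 5 entries that name no gene (56.1% and 56.9% of all reads listed, WT first) and were left out. The counting program and its use of strand are not given in the sources used here.

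Each library was scaled by its size factor (1.17 and 0.858), from the median-of-ratios method of DESeq2 1.42.0 in R 4.3.3. No model of edgeR or DESeq2 can estimate a spread from 1 library per group, so no p-value is given. Log2 ratios used a pseudocount of 1, and their 95% intervals are exact conditional binomial (Clopper-Pearson) intervals of the raw counts without it. Shares have exact binomial and levels per length exact Poisson intervals. Positions and exon lengths were from GENCODE M21. The procedure was tested on simulated data. Python 3.11.15, numpy 2.4.6, scipy 1.17.1 and matplotlib 3.10.9 were used.

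The genes, gene lists and motifs were chosen with earlier results of these data known. Named genes are the 10 late genes, *Ezh2*, the 4 most abundant of each list, mature neutrophil markers at 0, and the 10 highest ratios among genes averaging 500 normalised counts or more; others are said to have been named after their values were seen. For most marker lists of other cells, not all 4 were printed, and 1 abundant gene of the HSC list is not reported here. A planned comparison of protein sequences was not run. Alternatives were TMM scaling (edgeR 4.0.16), total-count scaling, other pseudocounts, thinning, filters and thresholds.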

Additional observations from a re-analysis of the deposited data

How the results depend on the processing

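Each of the 10 late genes kept its direction under TMM scaling, total-count scaling with or without these genes in the totals, pseudocounts of 0.5 and 5, and thinning of the deeper library. All 60 of these values stayed within the counting interval of the reported ratio, and the median over the genes ranged from 1.27 to 1.30. *Clec4d* varied most, from 1.61 to 2.31.

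At 1.5-fold 9 of the 10 genes were higher, with the 95% counting bound past 2-fold 7, and at 4-fold 1, *Clec4d*. *Cebpe*, at 4.01-fold without the pseudocount, fell just short with it. All genes at least 2-fold higher numbered 618 and lower 491; at 1.5-fold they were 1321 and 1261, at 4-fold 198 and 116, with the 95% counting bound past 2-fold 166 and 109, without a filter on low counts 1404 and 1098, and with a mean of at least 10 CPM 96 and 115. With ribosomal protein genes left out of the total, the summed share of the 10 genes was 0.170% in WT and 0.367% in the other library. Of the list medians, 2 changed sign: monocyte and macrophage genes became 0.12 without the filter, and T and natural killer cell genes -2.54 at 10 CPM. The B lymphoid median became 2.25 without the filter and 0.31 at 10 CPM. Each change came with another set of genes tested. Depth limits *Clec4d* and *Cebpe* most, with 5 and 20 counts in WT. No paired analysis was possible because only 1 library stood in either group, and for that reason leaving out a replicate and a DESeq2 or edgeR test could not be run.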
